A study of Mus musculus with 4 samples.

Results

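Most of the mRNAs described here encode proteins that take part in packaging sperm DNA, and some are known to be stored by spermatids for translation late in their development. They were the 3 protamine genes Prm1, Prm2 and Prm3, the transition protein genes Tnp1 and Tnp2, the spermatid linker histone genes Hils1 and H1fnt, and Smcp, which encodes the sperm mitochondria-associated cysteine-rich protein. A cluster of reads was taken as belonging to a gene when its centre lay inside the gene span (GENCODE M21, mouse build mm10) on the strand of that gene. All 8 genes had clusters in both replicates, out of 14,251 genes of the annotation that did. They held 58 of the 337,234 clusters of replicate 1 and 55 of the 216,354 clusters of replicate 2.

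The study mapped RNA bound by IGF2BP3 in whole testes of wild type C57BL/6 mice aged 8 weeks, by eCLIP-seq. In eCLIP, RNA is crosslinked to protein by ultraviolet light, the complexes are pulled down with an antibody, and the bound fragments are sequenced. Each of 2 replicates paired 1 IP library, made with an IGF2BP3 antibody, with 1 size-matched input (SMInput) library, made from lysate with no antibody, so that 4 samples entered. Each sample came from testes that were crosslinked after gentle dispersal, and the labels do not state whether the replicates came from separate animals, though the study calls them biological replicates. Lysates held germ cells and somatic cells together, and fewer cells of a type and less RNA per cell cannot be told apart in such samples. Read totals worked out from the deposited values were 5,133,438 for the IP and 8,706,391 for the SMInput of replicate 1, and 4,637,612 and 16,696,122 in replicate 2.

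IGF2BP3 is an RNA-binding protein with KH and RRM domains, of a family known for effects on the stability and translation of mRNAs. When round spermatids elongate, histones are first replaced by transition proteins and then by protamines, small arginine-rich proteins that compact the DNA. Because transcription stops before that exchange is complete, the mRNAs of protamines, transition proteins and Smcp are made early, held in untranslated particles and translated days later.

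IGF2BP3 crosslinking past the thresholds was found on Smcp and Hils1 and, in neither replicate, on any of the 3 protamine or 2 transition protein mRNAs. A cluster passed the thresholds, those of the study, when its log2(fold change) of IP over SMInput reached 2, a 4-fold enrichment, and its −log10(P value) also reached 2. This held for 14 of the 58 clusters in replicate 1 (24.1%, against 4.92% of all clusters) and for 16 of the 55 in replicate 2 (29.1%, against 13.2% of all clusters). Smcp alone held 13 and 15 of these, and Hils1 held 1 in each replicate. Without Smcp, 1 of 41 clusters (2.44%) and 1 of 38 (2.63%) passed, below the share of all clusters. Counted by gene, 2 of the 8 members had a passing cluster in both replicates, against 35.2% of the 14,251 genes. Within 1 replicate the same 2 genes passed, against 35.5% of the 17,116 genes with a cluster in replicate 1 and 57% of the 15,203 in replicate 2. At these thresholds the number of members called was thus no higher than in genes at large, and the passing clusters were concentrated on 1 mRNA. That reading depended on the threshold. With both thresholds at 3, 8 clusters in replicate 1 (against 1.18% of all clusters) and 6 in replicate 2 (against 2.42%) passed, and 1 member, Smcp, passed in both (against 8.47% of genes). With the fold threshold lowered to a log2 value of 1, 35 clusters (against 7.24%) and 36 (against 18.4%) passed, and 6 of the 8 members in both replicates (against 40.8%), all but Prm3 and H1fnt. Among clusters with at least 50 SMInput reads, a limit added after the data were seen, 33 of 53 (against 21.1%) and 32 of 51 (against 29.9%) passed at that lower threshold. By gene these were 5 of the 6 members with such a cluster in both replicates (against 22.6% of 1,019 genes). These clusters are not independent and the difference was not tested. For some of all clusters only the smallest possible read numbers are known, so the shares at that depth are approximate.

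Most of these mRNAs were covered deeply. The median member cluster held 157.5 IP and 115.5 SMInput reads in replicate 1 and 139 IP and 235 SMInput reads in replicate 2, whereas the median over all clusters with recovered reads was 4 IP and 2 SMInput reads, and 4 IP and 6 SMInput reads. Clusters listed at a −log10(P value) of 0 or 400 give only the smallest possible read numbers, so ranks by depth are approximate. By the SMInput reads of its deepest cluster, taken at that minimum, Smcp ranked 86 of 17,116 genes in replicate 1 and 82 of 15,203 in replicate 2. Prm2 ranked 113 and 119, and Prm1 131 and 123. Hils1 was the shallowest, at rank 3,356 and 6,650. Since shallow clusters can reach high ratios from few reads, deep clusters are the closer comparison: among clusters with at least 50 SMInput reads, 4.77% passed in replicate 1 and 7.03% in replicate 2. Of the members' clusters of that depth, 13 of 53 and 15 of 51 passed, all of them on Smcp. The depth limit was chosen after the data were seen. It was applied to the smallest possible reads for clusters listed at 0 (35,791 and 16,261) or 400 (155 and 327). Deep clusters among these can be left out, mostly ones without enrichment, so the shares of all deep clusters are approximate and can be too high.

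**Figure D1:**
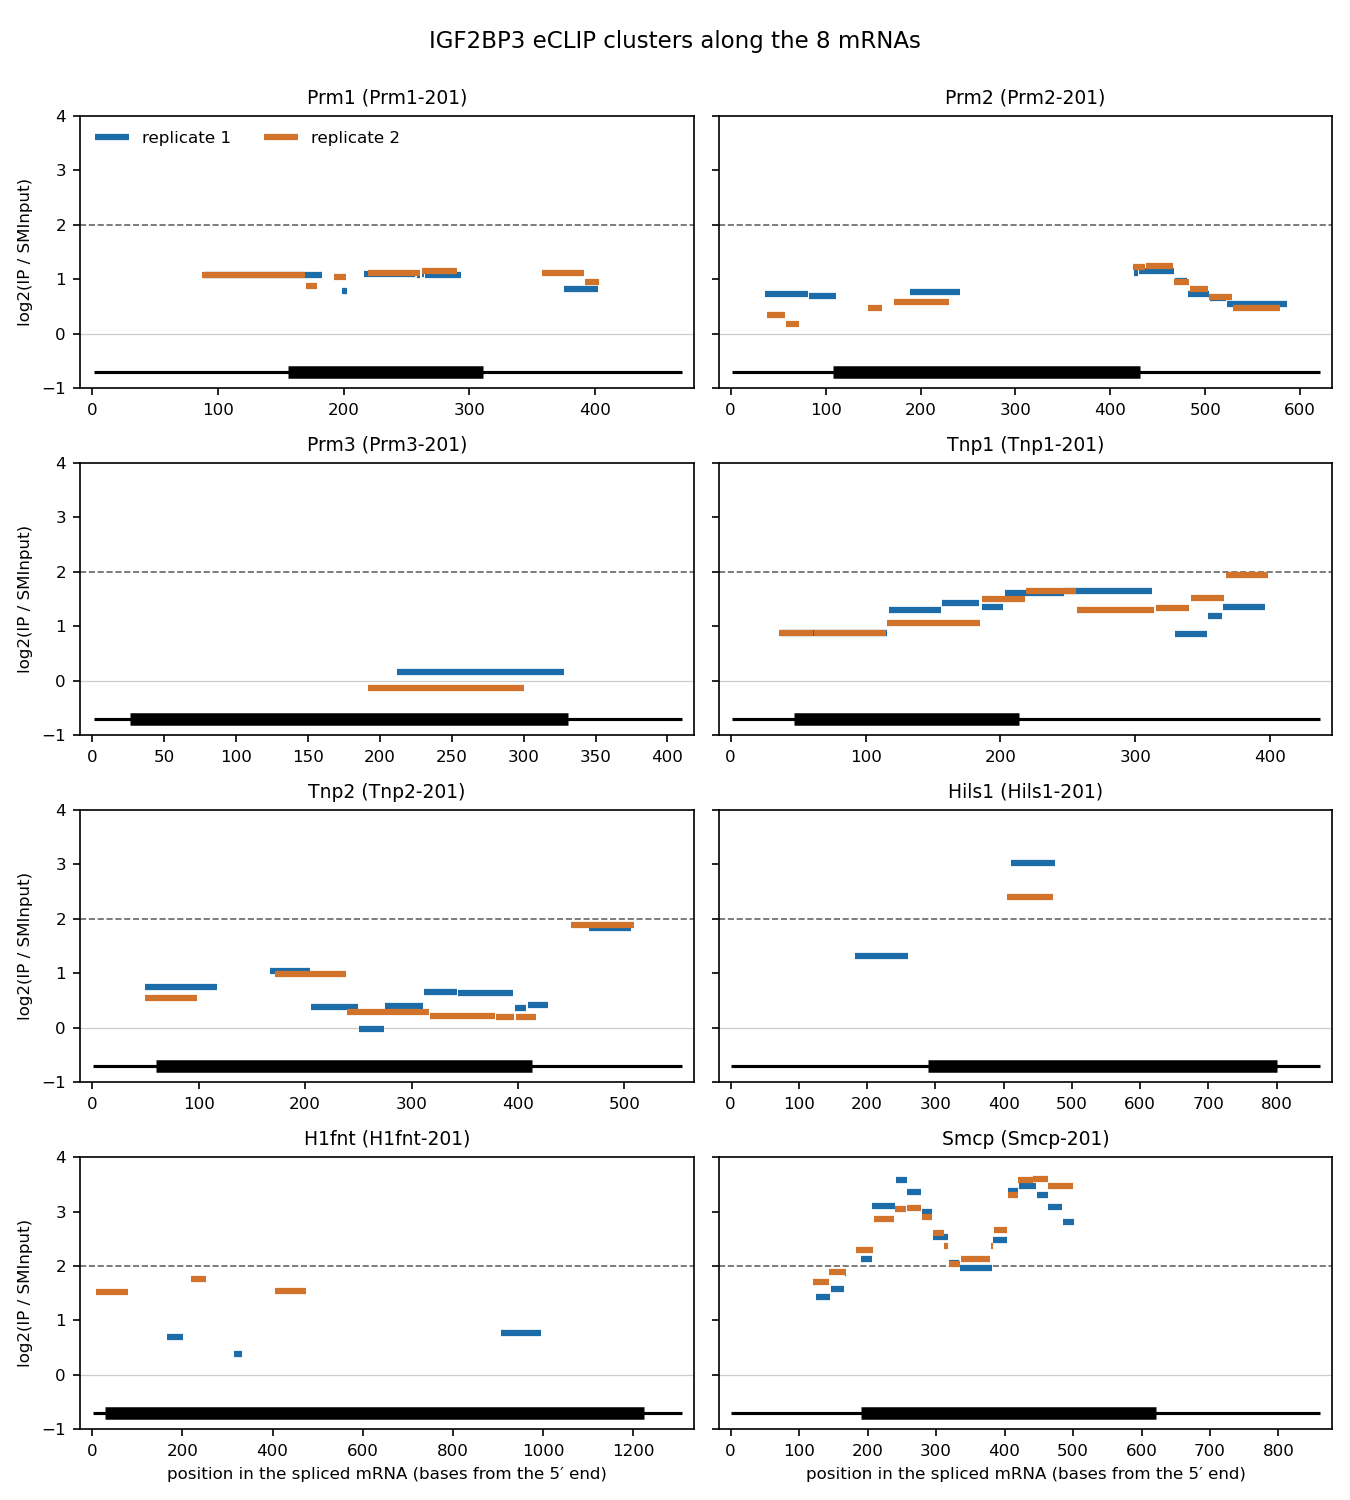
Clusters along the spliced mRNA of each of the 8 genes. The x axis is the position in bases from the 5′ end of the named transcript, the y axis the log2 ratio of IP to SMInput reads scaled to their libraries, and each bar spans 1 cluster, blue for replicate 1 and orange for replicate 2. The dashed line marks the threshold of 2, the thick black bar the coding sequence. Smcp peaks at 3.58 in replicate 1, upstream of a dip near 2, and at 3.60 in replicate 2, downstream of that dip. The Hils1 coding cluster lies above the line in both replicates, and the bars of the other 6 mRNAs stay below it.

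Smcp had the highest median and the most passing clusters of the members. Its gene lies on the minus strand at chr3:92583867-92588997 and has 17 clusters in each replicate. Those centred in the coding sequence, 14 in replicate 1 and 15 in replicate 2, formed an unbroken block from 92584227 to 92584538 and from 92584228 to 92584545. Log2(fold change) along the block ran from 1.97 to 3.58 in replicate 1 and from 2.03 to 3.60 in replicate 2. A single coding cluster of replicate 1 missed the threshold, at 1.97. Of the 17 clusters, 12 in replicate 1 and 14 in replicate 2 were listed at a −log10(P value) of 400, the ceiling of the tables. For those the listed values fix only the ratio of the reads, so the read numbers below are the smallest taken to fit, and more reads would narrow their intervals.

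The enrichment on Smcp had 2 summits. At the upstream one, the cluster at chr3:92584471-92584487 had the highest value of replicate 1, with at least 641 IP and 91 SMInput reads and a log2(fold change) of 3.58 (95% interval 3.26 to 3.91), an 11.9-fold enrichment. At the same place, replicate 2 listed 3.04 (2.80 to 3.29) for chr3:92584472-92584488, from at least 450 IP and 197 SMInput reads. At the downstream summit, the order of the replicates was the other way round. The highest value of replicate 2 was at chr3:92584265-92584286, with at least 571 IP and 170 SMInput reads and 3.60 (3.35 to 3.85), where replicate 1 listed 3.30 (2.99 to 3.63) at chr3:92584265-92584281 from at least 571 IP and 98 SMInput reads. Log2(fold change) of at least 3 was therefore listed at both summits in both replicates. Since these 4 clusters are at the ceiling, their intervals are wider than the true reads would give and say little about whether the replicates differ.

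Between the summits the ratio fell. The largest of the smallest possible IP read numbers was at chr3:92584346-92584393 in replicate 1, with at least 1,355 IP and 587 SMInput reads and a log2(fold change) of 1.97 (1.83 to 2.11). In replicate 2 it was at chr3:92584349-92584392, with at least 1,361 IP and 1,119 SMInput reads and 2.13 (2.02 to 2.25). Which cluster held the most reads is not known from ratios alone. The next strongest clusters lay at both summits. In replicate 1 they were chr3:92584282-92584307 at 3.48, chr3:92584308-92584323 at 3.38, chr3:92584450-92584470 at 3.36 and chr3:92584265-92584281 at 3.30. Replicate 2 listed 3.58 at chr3:92584287-92584308, 3.46 at chr3:92584228-92584264, 3.31 at chr3:92584309-92584323 and 3.06 at chr3:92584450-92584471.

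Clusters in the 5′ UTR exon of Smcp were weaker. There were 3 in replicate 1, with log2(fold change) of 1.42 to 1.86, and 2 in replicate 2, with 1.70 and 1.88, and the intervals of the highest ran from 1.39 to 2.35 and from 1.56 to 2.21. None of the clusters lay in the 3′ UTR of Smcp, 240 bases long, in either replicate.

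The Smcp sequence under the summits is shown because most of the members' passing clusters fall on it. It runs along chr3:92584244-92584488 (mm10, minus strand, 245 bases), from base 51 to base 295 of the coding sequence of 432 bases, and capitals mark the 80 and 39 bases where both replicates listed a log2(fold change) of at least 3.
Smcp: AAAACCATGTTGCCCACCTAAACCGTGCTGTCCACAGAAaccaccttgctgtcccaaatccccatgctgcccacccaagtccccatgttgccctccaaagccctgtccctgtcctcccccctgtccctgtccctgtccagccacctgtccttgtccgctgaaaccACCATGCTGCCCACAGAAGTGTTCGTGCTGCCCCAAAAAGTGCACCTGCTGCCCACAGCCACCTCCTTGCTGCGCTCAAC
The stretch is 59.6% G and C. The letters TGCTG occur 7 times in it, 5 of them within the capitals, a motif picked after the sequence was seen.

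Hils1 encodes a linker histone-like protein of spermatid nuclei, from a single exon at chr11:94967593-94968456 on the plus strand. Its passing cluster lay in the coding sequence in both replicates. In replicate 1, chr11:94968003-94968067 had 29 IP and 6 SMInput reads, a log2(fold change) of 3.04 (1.74 to 4.59) and a −log10(P value) of 7.25. In replicate 2, chr11:94967997-94968065 had 22 IP and 15 SMInput reads, 2.40 (1.39 to 3.45) and 7.09. The lower bounds of both intervals were below the threshold of 2, while both were above 0. With both thresholds raised to 3, Hils1 passed in replicate 1 only. The other cluster of replicate 1, in the 5′ UTR at chr11:94967774-94967852, had 28 IP and 19 SMInput reads and 1.32 (0.43 to 2.24), and replicate 2 listed none there.

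The Hils1 site is printed as the other place where a member passed in both replicates, at chr11:94967997-94968067 (mm10, plus strand, 71 bases), with the 63 bases covered by both replicates in capitals.
Hils1: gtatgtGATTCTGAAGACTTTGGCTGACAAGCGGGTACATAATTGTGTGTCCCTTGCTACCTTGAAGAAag

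H1fnt, the other linker histone gene, is expressed in spermatids and lies on the minus strand at chr15:98255986-98257293. Its values were lower and did not recur in position. In replicate 1, 3 coding clusters had log2(fold change) of 0.38 to 0.76, from 13 to 22 IP reads, and all 3 intervals included 0. In replicate 2, 3 coding clusters had 1.53 to 1.77, from 17 to 32 IP reads, with all 3 intervals above 0. The highest were chr15:98256299-98256387 in replicate 1, with 22 IP and 22 SMInput reads, 0.76 (−0.16 to 1.68) and a −log10(P value) of 0.975, and chr15:98257042-98257074 in replicate 2, with 17 IP and 18 SMInput reads, 1.77 (0.72 to 2.81) and a −log10(P value) of 3.57. The cluster with the most IP reads in replicate 2 was chr15:98257215-98257285, with 32 IP and 40 SMInput reads and 1.53 (0.81 to 2.23). No cluster of one replicate overlapped a cluster of the other.

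Tnp1, the first of the transition proteins, is encoded on the minus strand at chr1:73015074-73015909, and 9 clusters in each replicate covered its coding sequence and 3′ UTR. All 18 were enriched with intervals above 0, and none passed. Log2(fold change) was 0.86 to 1.65 in replicate 1 and 0.87 to 1.93 in replicate 2, with medians of 1.35 and 1.34. The highest value of replicate 1 was in the 3′ UTR at chr1:73015199-73015263, with 139 IP and 75 SMInput reads, 1.65 (1.24 to 2.08) and a −log10(P value) of 16.2. In replicate 2 it was near the 3′ end at chr1:73015113-73015144, with 86 IP and 81 SMInput reads, 1.93 (1.48 to 2.39) and a −log10(P value) of 19.6, where replicate 1 listed 1.35 (0.82 to 1.88) from 78 IP and 52 SMInput reads. The most IP reads were at chr1:73015264-73015308 in replicate 1, with 153 IP and 85 SMInput reads and 1.61, and at chr1:73015725-73015794 in replicate 2, with 133 IP and 230 SMInput reads and 1.06. On this mRNA the enrichment was thus present along its whole covered length, at 2.54- and 2.53-fold by the medians.

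Tnp2, the gene of the other transition protein, combined values near 0 and values near the threshold on 1 mRNA. Together with Prm1, Prm2 and Prm3 it forms a gene cluster on the minus strand of chromosome 16, where it lies at chr16:10787936-10788660. Near the end of its 3′ UTR, chr16:10787984-10788023 had 111 IP and 53 SMInput reads in replicate 1, with 1.83 (1.34 to 2.33). In replicate 2, chr16:10787981-10788040 had 130 IP and 127 SMInput reads, with 1.88 (1.52 to 2.25) and a −log10(P value) of 28.1. Both lay just under the fold threshold, with intervals that reached past it. Over the coding sequence, by contrast, the medians were 0.51 over 8 clusters in replicate 1 and 0.24 over 6 in replicate 2. The most IP reads were at the start of the coding sequence in replicate 1, at chr16:10788544-10788611 with 163 IP and 164 SMInput reads and 0.75 (0.43 to 1.07). In replicate 2 they were at chr16:10788345-10788422, with 139 IP and 412 SMInput reads and 0.28 (−0.01 to 0.56). A rise within the coding sequence recurred, at 1.04 for chr16:10788456-10788494 in replicate 1 and 0.98 for chr16:10788423-10788489 in replicate 2. The 30 bases in the middle of the stretch that these 3′ UTR clusters share, chr16:10787989-10788018 (mm10, minus strand), are given because they carry the motifs GGACT and GAACA, in capitals. Both motifs also occur in the weakly enriched coding sequence, GGACT at chr16:10788290-10788294 and GAACA at chr16:10788349-10788353. Clusters over these copies listed 0.40 to 0.66 in replicate 1, and 0.21 and 0.28 in replicate 2.
Tnp2: GGACTgttgggatgatgtcacagGAACAtg

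Prm1 and Prm2 encode the protamines that finally package the DNA, and both mRNAs were read deeply in IP and SMInput with about the same modest ratio in each replicate. Prm1, at chr16:10796326-10805839 on the minus strand, had 7 clusters in each replicate with log2(fold change) of 0.79 to 1.09 and 0.87 to 1.15, and medians of 1.07 and 1.08. The cluster with the most IP reads spanned the start of the coding sequence, at chr16:10796704-10796798 with 445 IP and 358 SMInput reads and 1.08 (0.87 to 1.28) in replicate 1, and at chr16:10796718-10796800 with 375 IP and 639 SMInput reads and 1.08 (0.89 to 1.27) in replicate 2. Their −log10(P value) was 26.1 and 31.1. The highest values were in the coding sequence, 1.09 (0.80 to 1.38) at chr16:10796630-10796671 from 231 IP and 184 SMInput reads, and 1.15 (0.89 to 1.41) at chr16:10796505-10796533 from 198 IP and 321 SMInput reads. Enrichment of Prm1 was therefore level along the mRNA, above 0 in all 14 intervals and below the threshold of 2 in all 14.

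Prm2, at chr16:10791380-10796134 on the minus strand, had 9 clusters in replicate 1 at 0.55 to 1.15 and 10 in replicate 2 at 0.17 to 1.25. In both replicates the highest values were where the 3′ UTR begins. There, chr16:10791534-10791571 had 207 IP and 158 SMInput reads and 1.15 (0.85 to 1.46) in replicate 1, and chr16:10791535-10791564 had 209 IP and 317 SMInput reads and 1.25 with a lower bound of 0.99 in replicate 2. The −log10(P value) was 13.9 and 22.6. Towards the 3′ end the values fell to 0.55 (0.35 to 0.76) at chr16:10791415-10791478 and to 0.47 (0.25 to 0.68) at chr16:10791422-10791472. Those clusters held the most IP reads, 368 IP and 426 SMInput reads in replicate 1 and 255 IP and 665 SMInput reads in replicate 2. The 5′ UTR differed more between the replicates, with 0.73 and a lower bound of 0.46 at chr16:10792025-10792070 in replicate 1. In replicate 2, 0.17 (−0.14 to 0.47) at chr16:10792034-10792048 was the lowest Prm2 value of that replicate, and chr16:10792049-10792068 had 0.33 (0.03 to 0.63). The intervals of the 3′ UTR start and the 3′ end did not overlap in either replicate. All 19 upper bounds were below 2.

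Prm3, between Prm2 and Tnp2 at chr16:10790505-10790914, is named a protamine gene by its place there, but its product is known as an acidic protein of the cytoplasm and not as a protein that packages DNA. It had a single coding cluster per replicate. In replicate 1, chr16:10790587-10790703 had 42 IP and 64 SMInput reads and 0.15 (−0.44 to 0.74), with a −log10(P value) of 0.18. In replicate 2, chr16:10790615-10790723 had at least 29 IP and 114 SMInput reads and −0.13 (−0.77 to 0.47), with a −log10(P value) listed at 0. No enrichment was detectable on Prm3 at this depth, and a 4-fold one lay outside both intervals.

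Across the 5 protamine and transition protein mRNAs, 33 of 36 clusters in replicate 1 and 31 of 34 in replicate 2 had an upper bound below the threshold of 2, and 32 and 28 had a lower bound above 0. In both replicates, the lowest lower bound of the Smcp coding clusters (1.72 and 1.89) was above the highest upper bound of the protamine clusters (1.49 and 1.53). By median log2(fold change), Smcp was first in both replicates (2.81 and 2.67), then Hils1 (2.18 over 2 clusters and 2.40 in 1 cluster), and Prm3 was last (0.15 and −0.13). Prm1 (1.07 and 1.08), Prm2 (0.73 and 0.63) and Tnp2 (0.52 and 0.28) followed Tnp1 in that order in both. H1fnt moved most between the replicates, from 0.68 to 1.54. The place of Hils1 in replicate 1 rests on the weighting, because with clusters weighted by width its median was 1.32, below the 1.35 of Tnp1. The order of Smcp and Hils1 does not separate them, as the intervals of Hils1 spanned most of the Smcp values.

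**Figure D2:**
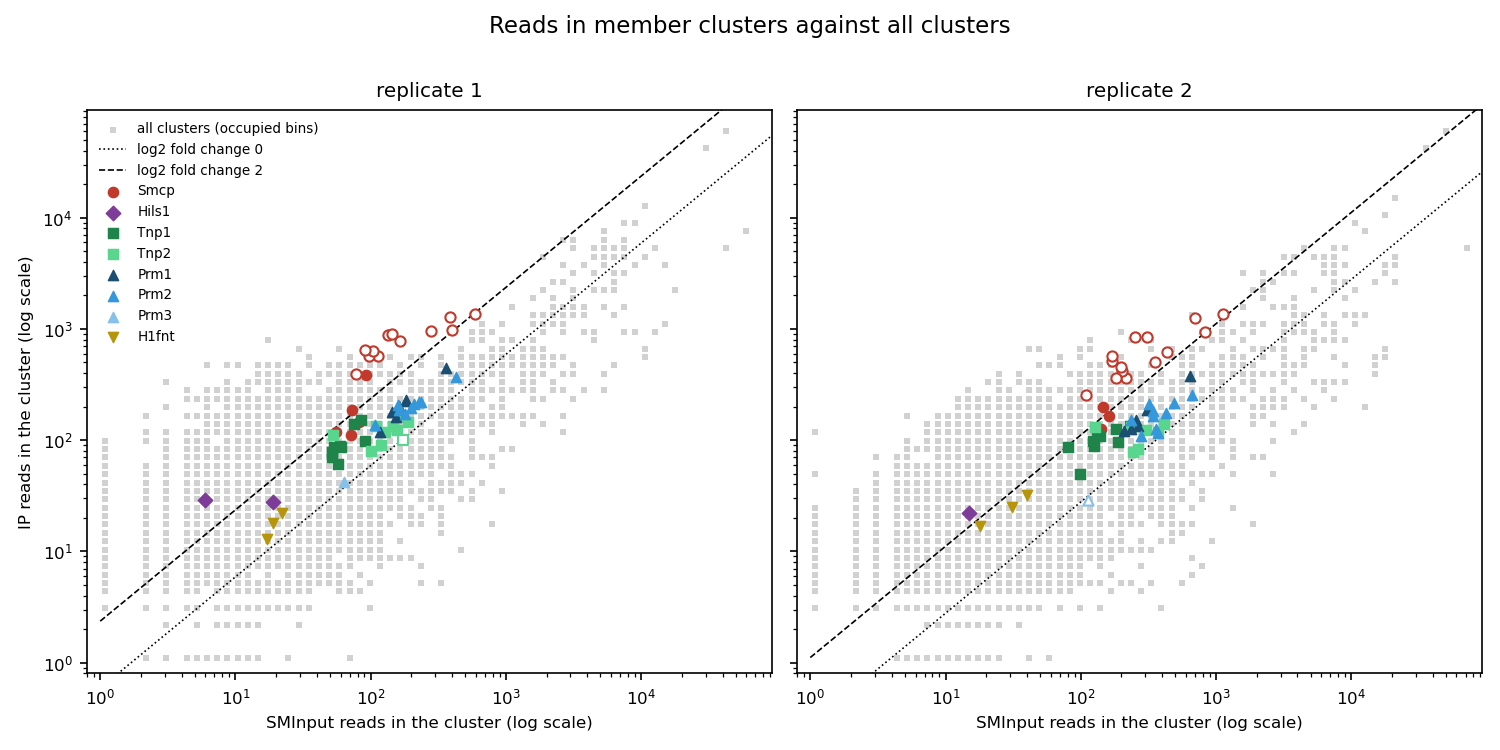
Reads behind the clusters, on log scales, with SMInput reads on the x axis and IP reads on the y axis, replicate 1 left and replicate 2 right. Each coloured symbol is 1 member cluster, open where only the smallest possible read numbers are known, and grey squares are bins that hold any of all clusters. The dotted and dashed lines mark log2(fold change) of 0 and 2 after scaling to the library totals. The Smcp coding clusters lie near or above the dashed line, most of them at minimum read numbers, and the Prm1 and Prm2 clusters lie between the lines at 108 to 445 IP reads.

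Most single sites, though not all, had a counterpart in the other replicate. All 14 passing clusters of replicate 1 overlapped a passing cluster of replicate 2 by at least 1 base, and 15 of the 16 of replicate 2 (93.8%) overlapped one of replicate 1. Since 13 of the 14 and 15 of the 16 lay side by side on Smcp, these shares describe few separate sites. The share over all passing clusters was not worked out, so they are not set against a background. Across the 80 overlapping pairs of member clusters, Pearson's r of the log2(fold change) was 0.96 and Spearman's rho 0.95, and across the 53 pairs outside Smcp they were 0.85 and 0.87. Neighbouring clusters share reads, so the pairs are not independent and these values are descriptions. The H1fnt clusters, the 5′ UTR cluster of Hils1 and 1 Prm2 cluster of each replicate overlapped none of the other replicate and are in no pair. In all 56 pairs with exact read numbers in both replicates the 95% intervals overlapped. On Smcp they did not in 3 of 27 pairs, the smallest number possible there, because most of its intervals rest on minimum reads and are the widest. The intervals cover counting error only.

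By region, 38 of the 58 member clusters of replicate 1 lay in coding sequence, 13 in a 3′ UTR and 7 in a 5′ UTR, and the 55 of replicate 2 fell into 37, 13 and 5. Every passing cluster lay in coding sequence, all of them on Smcp but for the 1 per replicate on Hils1, and no cluster lay in an intron. Shares by region over all clusters were not worked out. On the opposite strand, the Hils1 span held 3 clusters in replicate 1, each of 3 IP and at most 1 SMInput reads, and the Prm1 span 1 cluster in replicate 2 of 4 IP and 2 SMInput reads. None of these passed.

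Short motifs were counted on the transcript strand in windows of 100 bases at the cluster centres. The windows were cut from the genome, so those near a splice site also hold intron bases. Those linked to m6A or to IGF2BP proteins were GGACT and, overlapping it by 4 letters, TGGAC, further GAACA along with the related AAACC, and lastly the CA-rich motif ACACA. The study found GAACA and AAACC in the IGF2BP3 peaks of these same data. Their shares here are therefore not independent of how the motifs were chosen. The Y-box element TCCATCA was counted as well. AAACC was in 11 of 58 windows in replicate 1 (against 7.67% of all clusters) and in 13 of 55 in replicate 2 (23.6%, against 7.24%), and all of these were Smcp windows that share 5 copies of the motif. GGACT was in 13.8% and 12.7% of the windows, against 8.53% and 8.66%, with none on Smcp, and GAACA in 15.5% and 10.9%, against 9.38% and 8.96%. Of the 8 GGACT windows of replicate 1, the 2 on Prm1 hold only an intron copy, and GAACA has 1 intron copy each in Tnp1 and Tnp2, so these are not in the mRNA. TGGAC (3.45% and 5.45%, against 8.75% and 9.13%) and ACACA (6.90% and 5.45%, against 10.5% and 9.52%) were in fewer windows than among all clusters. Of the ACACA windows, 3 of 4 in replicate 1 and 2 of 3 in replicate 2 held a copy in the Smcp intron at chr3:92588821-92588825, which is not in the mRNA. In windows of 50 bases AAACC windows and those of GGACT stayed above the background in both replicates, those of TGGAC stayed below it, and the other motifs changed side in 1 replicate. GAACA in replicate 2 fell to 1.82% (against 4.11%), and ACACA in replicate 1 was at 5.17% (against 4.99%), so that neither motif differed from all clusters in a steady direction. The windows overlap one another, so the shares are descriptions and were not tested.

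TCCATCA occurred once, in the 3′ UTR of Prm1, in 1 window of replicate 2, against 0.747% and 0.743% of all windows, and in 0 windows of 50 bases. Y-box proteins are known for binding this element in stored spermatid mRNAs, and it is shown at chr16:10796451-10796475 (mm10, minus strand) with the element in capitals.
Prm1: aatagcaagTCCATCAaaactcctg
The nearest 3′ UTR clusters on its downstream side, at chr16:10796393-10796420 in replicate 1 and chr16:10796404-10796437 in replicate 2, had log2(fold change) of 0.83 (0.50 to 1.15) and 1.12 (0.82 to 1.41). A further one of replicate 2, at chr16:10796392-10796403, had 0.95 (0.62 to 1.27).

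Other genes of the same processes were taken from 3 lists. A gene counted with any 1 passing cluster, and cluster numbers differed widely, from 1 on Hist1h2ba to 139 on Psme4 in replicate 1. The shares of all genes were not matched to the lists for cluster number or depth, and no difference was tested. Places were compared between replicates only for the strongest cluster of each named gene. Of 16 further mRNAs translated late in spermatids, 11 (68.8%) had a passing cluster in both replicates, against 35.2% of all genes. Oaz3, which encodes a testis-specific antizyme, had the highest smaller value of the 2 replicates, at 3.63 in replicate 1 from at least 539 IP and 74 SMInput reads and 3.67 in replicate 2 from at least 219 IP and 62 SMInput reads, at chr3:94434973-94435044 in both. Acr, the gene of the acrosomal protease acrosin, reached 3.59 (149 IP and 21 SMInput reads) and 3.83 (162 and 41), and Ropn1, the gene of the sperm flagellum protein ropporin, 3.46 (13 and 2) and 3.07 (14 and 6), at different places in the 2 replicates. Passing in neither replicate was Cylc2 alone, and Cabs1, Ccin, Cylc1 and Tssk6 passed in 1. With both thresholds at 3, 4 of the 16 passed in both replicates, against 8.47% of all genes.

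Of 17 genes of histone removal and replacement, 6 (35.3%) passed in both replicates, close to the 35.2% of all genes. With both thresholds at 3 the shares were further apart, at 3 of the 17 against 8.47% of all genes, and the difference was not tested. Hdac11, a histone deacetylase gene, had the strongest cluster, at 5.76 from 96 IP and 3 SMInput reads in replicate 1 and at least 8.67 from 113 IP and at most 1 SMInput read in replicate 2. Dot1l, the gene of a histone H3 methyltransferase, had 4.64 (88 and 6 reads) and at least 4.17 (5 and at most 1). Kdm3a, the gene of a histone demethylase needed for activation of Prm1 and Tnp1, had 3.76 (16 and 2) and at least 3.85 (4 and at most 1). In all 3 genes, these strongest clusters lay at different places in the replicates. Hdac11 had 7 and 5 passing clusters and Dot1l 9 and 7, and whether the others overlapped was not worked out. As no cluster of either table has 0 SMInput reads, a number of 1 may also stand for none, and values over 1 SMInput read are lower bounds only. None passed for the testis histone genes Hist1h1t, Hist1h2aa and Hist1h2ba, nor for Camk4, Hspa2, Parp2 and Phf7, and Brdt, Kat5, Rnf8 and Top2b passed in 1 replicate.

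Of 14 regulators of spermatid transcription, mRNA storage and translation, 9 (64.3%) passed in both replicates, against 35.2% of all genes. Cluster numbers were not matched here either, with 106 on Crem in replicate 1, and the difference was not tested. Sox30, a transcription factor gene, had 4.48 from at least 303 IP and 23 SMInput reads and 4.67 from at least 241 IP and 34 SMInput reads. Papolb, the gene of a testis-specific poly(A) polymerase, had 5.15 (42 and 2 reads) and 3.96 (26 and 6). Crem, the gene of a transcription factor that drives the spermatid genes, had at least 3.76 (8 and at most 1) and 3.46 (52 and 17), again at different places. Piwil1 and Taf7l passed in neither replicate, and Ddx25, Fhl5 and Ybx3 passed in 1. With both thresholds at 3, 4 of the 14 passed in both replicates, against 8.47% of all genes.

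The genes of these lists whose median log2(fold change) came nearest to the medians over the 8 members, 0.90 in replicate 1 and 1.21 in replicate 2, were Brdt (0.91 and 1.26, a distance of 0.05), Rfx2 (0.79 and 1.25, 0.11) and Phf7 (0.95 and 1.07, 0.15). Over all 14,251 genes the medians were 1.55 and 1.85, values that rest mostly on clusters of few reads. Among all clusters with at least 50 SMInput reads the median log2(fold change) was 0.31 and 0.56.

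Markers of testis cell types were checked for the labelled tissue. Of 31 markers of spermatids, spermatocytes, spermatogonia, Sertoli, Leydig and peritubular cells and macrophages, 31 had a cluster in replicate 1 and 30 in replicate 2, where the Sertoli cell gene Rhox5 had none. The deepest cluster by SMInput reads held 48 and 63 reads for the 5 spermatid markers (Acrv1), 169 and 236 for the 5 spermatocyte markers (Piwil1), 36 and 38 for the 5 spermatogonium markers (Uchl1), 87 and 117 for the 5 Sertoli cell markers (Cldn11), 319 and 521 for the 5 Leydig cell markers (Insl3), 36 and 38 for the 3 peritubular markers (Acta2) and 5 and 4 for the 3 macrophage markers. RNA of germ cell markers and of somatic cell markers was thus present in the input.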

How the data were processed

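The authors processed the reads with cutadapt, Bowtie2 and STAR on mm10 and called clusters of each replicate with Clipper. The deposited −log10 (P value) and log2 (fold change) values are the authors' comparison of IP with SMInput reads in each cluster (chi-square or Fisher's exact test), listed at 0 without enrichment and at most at 400. Here, whole read numbers were solved from both values, with a single solution for 100% of clusters between 0 and 400, and the procedure was tested on simulated data. Clusters at 0 or 400 give only the ratio. For them the smallest whole numbers were taken, at 400 those with a −log10(P value) above the highest chi-square value listed below that ceiling (88.2 and 88.0), so that their intervals are the widest. Exact (Clopper-Pearson) 95% intervals came from these reads and cover counting error only, and no test between samples was made. Regions came from basic GENCODE M21 transcripts, with the stop codon counted as coding. Python 3.11.15, pandas 2.3.3, numpy 2.4.6 and scipy 1.17.1 were used. The members and lists were chosen with earlier results of these data known. Named were all 8 genes, with their strongest clusters, those with the most (or largest minimum) IP reads and up to 5 passing ones per replicate, the 3 genes per list passing in both replicates with the highest smaller value of their strongest cluster, and the 3 list genes nearest to the members by Euclidean distance of both medians. Other clusters were named after their values were seen. Alternatives changed thresholds, assignment, read minimum, joining, overlap, weighting, region order, motif window and replicates.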

Additional observations from a re-analysis of the deposited data

How the results depend on the processing

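No paired analysis was possible because each table already compares an IP with the SMInput of its own replicate and no test between samples was made. With both thresholds at 3, 8 and 6 member clusters passed in replicates 1 and 2, and 1 member, Smcp, passed in both. The list genes passing in both fell to 3 of 17 (histone), 4 of 16 (late-translated) and 4 of 14 (regulators), against 8.47% of all genes. When a fold change threshold of 1 on the log2 scale was used, 35 and 36 clusters and 6 members passed, and with at least 50 SMInput reads, added after seeing the data, 33 and 32 clusters. Touching clusters joined left 3 and 2 sites. These settings change what is counted by construction. Without replicate 1 or replicate 2, the number of members was 2. Assignment by any overlap or by exons and at least 10 IP reads kept the counts of passing clusters and members. With an overlap of at least 50%, all 14 passing clusters of replicate 1 still had a counterpart, and the other overlap values were not run that way. A minimum of 50 SMInput reads, added after seeing the data, left 13 and 15 clusters. Windows of 50 bases changed the side of the background for GAACA in replicate 2 (1.82%), ACACA in replicate 1 (5.17%) and TCCATCA in replicate 2 (0%), and the cause was not tested. Weighted by width, the Hils1 median of replicate 1 was 1.32. Of 96 alternative values, 77 stayed within the limit set for them, 16 moved and 3 changed direction. Depth limits Hils1 and H1fnt, whose clusters held at most 32 IP reads.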
